A study of Mus musculus with 6 samples.

Results

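The fatty acid desaturases and elongases examined here are 10 genes, taken by their symbols from a deposited count table of 22272 distinct gene symbols: the stearoyl-CoA desaturases Scd1 and Scd2, the fatty acid desaturases Fads1, Fads2 and Fads3, and the elongases Elovl1, Elovl4, Elovl5, Elovl6 and Elovl7. These are enzymes of the endoplasmic reticulum membrane that reshape fatty acids after the synthase has released palmitate. Elongases add carbon units from malonyl-CoA, and each accepts its own range of chain lengths and unsaturation. Stearoyl-CoA desaturases place a double bond in saturated chains to make oleate and palmitoleate, and Fads enzymes add further double bonds to polyunsaturated chains or to sphingolipid bases. In liver, Scd1 and Elovl6 are known as lipogenic genes under the control of ChREBP and of the sterol-regulated factor SREBP-1c.

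RNA was read from C2C12 cells, a mouse myoblast line, in 2 groups of 3 libraries. The first group overexpressed ChREBP-beta, the short and highly active form of the glucose-responsive transcription factor encoded by Mlxipl. The other group, labelled as wild type in genotype, carried green fluorescent protein (GFP). All 6 libraries were labelled undifferentiated, at day 0. The comparison asks how transcripts differed in cells that overexpressed the factor. No label says how overexpression was achieved, whether each line was a clone or a pool, or whether replicates were separate cultures. The p-values therefore cover the variation among these 6 libraries only, and that variation could be technical.

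Each library held between 17600238 and 19163834 counts. Mlxipl, the overexpressed gene, averaged 219 ± 3.85 CPM (counts scaled to library size and composition) with ChREBP-beta and 0.599 ± 0.111 CPM with GFP (SD, n = 3 each), which fits the group labels of all 6 libraries. Under edgeR's quasi-likelihood test with Benjamini-Hochberg adjustment over all genes, called at an adjusted p under 0.05, 58.7% of the 12166 genes tested differed, 29.5% higher and 29.3% lower with ChREBP-beta. All 8 myoblast markers were read, and their summed level lay between 122 and 130 CPM with ChREBP-beta and between 374 and 413 CPM with GFP. Among these, Des (desmin) and Itga7 had the highest levels, and both were called lower (2.82-fold and 2.07-fold). Also called lower were Myod1 (24.9-fold), Pax7 (21.6-fold), Cdh15 (16.8-fold), Chrna1 (13.1-fold), Musk (3.42-fold) and Myf5 (2.86-fold). Pax7 had only 6 counts over the 3 ChREBP-beta libraries. The myoblast markers beyond Des and Itga7 are named after their values were seen. Markers of other cell types were summed in the same way. For 8 hepatocyte genes, led by Alb and Trf, the sum lay between 20.7 and 28.3 CPM with ChREBP-beta and between 0.628 and 34.0 CPM with GFP. For 6 lung epithelial genes, led by Scgb1a1 and Sftpc, it lay between 70.7 and 91.5 CPM with ChREBP-beta and between 0.576 and 137 CPM with GFP. For 5 red blood cell genes, led by Hbb-bs and Hba-a1, it lay between 5.49 and 9.79 CPM with ChREBP-beta and between 3.35 and 11.03 CPM with GFP. For 5 macrophage genes, led by Lyz2 and Cd68, it lay between 15.4 and 17.6 CPM with ChREBP-beta and between 5.34 and 17.4 CPM with GFP. For 6 adipocyte genes, led by Cfd and Plin1, it lay between 0.231 and 1.41 CPM with ChREBP-beta and between 0.105 and 0.780 CPM with GFP, and Lep was at 0 in every library. Fibro-adipogenic genes, led by Cd34 and Ly6a, lay between 875 and 900 CPM with ChREBP-beta and between 827 and 861 CPM with GFP, and all 6 of them were read. Within that sum the genes moved in opposite directions, with Dpt, Pi16, Pdgfra and Ly6a called higher (4.26-fold, 3.44-fold, 1.68-fold and 1.5-fold), Dcn called lower (3.90-fold) and Cd34 called lower (a difference of -16.6%), the genes beyond Cd34 and Ly6a being named after their values were seen. Whether the shift in myoblast markers or these other markers has a part in the results on the 10 genes was not tested, and in bulk RNA fewer cells of a type and less RNA per cell cannot be told apart.

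Of the 10 genes, all of which passed the filter on low counts, 4 rose, 3 fell and 3 were not called. Fads3, Elovl5, Elovl1 and Fads1 were the genes that rose, Elovl4, Scd1 and Scd2 were those that fell, and Fads2, Elovl6 and Elovl7 were not called. The 70% called stands beside 58.7% of all genes tested, a share near the background. The median log2 fold change was 0.03 over the 10 genes and -0.004 over all genes tested, and the median size of a change, without its sign, was 0.24 over the 10 genes and 0.23 over all. Called changes of at least 1.5-fold were counted for Fads3 and Elovl4, against 19.8% of all genes tested. In 7 of the 10 genes the libraries of the groups did not overlap, which was so for 63.2% of all genes tested.

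**Figure D1:**
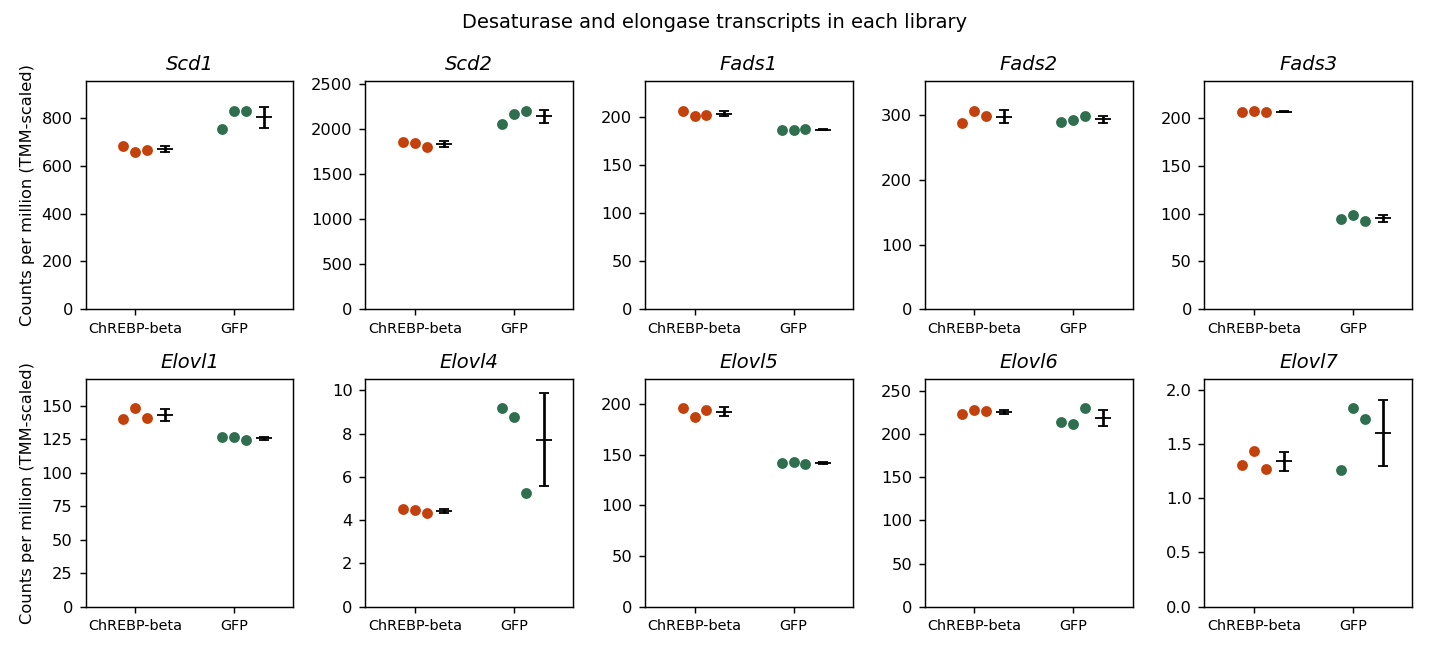
Level of each gene in every library, in CPM scaled by TMM, with ChREBP-beta libraries on the left and GFP libraries on the right of each panel. Points are libraries and the black mark is the mean with its SD (n = 3). Fads3 sits near 207 CPM in the ChREBP-beta libraries and between 92.2 and 98.7 CPM in the GFP libraries, and Elovl4 has 1 GFP library close to the ChREBP-beta libraries.

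The stearoyl-CoA desaturases were the most abundant of the 10 genes and both fell by small amounts. Scd2 (ENSMUSG00000025203.6), the main isoform in brain and in fetal tissue, ranked 30 among all symbols by mean CPM. Its level was 1855, 1836 and 1799 CPM in the ChREBP-beta libraries, against 2056, 2157 and 2198 CPM in the GFP libraries. Every ChREBP-beta library was below every GFP library. Scd2 fell by 0.22 on the log2 scale (SE 0.027, edgeR adjusted p = 1.67e-07), a difference of -14.4% with a 95% interval from -17.7% to -10.9%. Scd1 (ENSMUSG00000037071.3), the main isoform in liver and fat, had 682, 659 and 665 CPM in the ChREBP-beta libraries, against 752, 827 and 830 CPM in the GFP libraries. These groups did not overlap either, and GFP replicate 1 was the lowest GFP library for both genes. Scd1 fell by 0.26 on the log2 scale (SE 0.032, edgeR adjusted p = 1.68e-07), a difference of -16.7% with a 95% interval from -20.5% to -12.8%. GFP replicate 1 was also the GFP library with the lowest summed hepatocyte and lung markers. Without it the log2 fold change was -0.31 for Scd1 and -0.25 for Scd2 (edgeR adjusted p = 2.95e-10 and 2.97e-09). Without GFP replicate 2, where the hepatocyte sum was 1.11 CPM, it was -0.24 for Scd1 and -0.21 for Scd2, and without GFP replicate 3, where that sum was 34.0 CPM, it was -0.23 for Scd1 and -0.20 for Scd2. Both genes were called lower in each of these fits, and the part of the markers in the falls was not tested.

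The reads of Scd1 and Scd2 may not be fully separable, and these were the 2 genes of the 10 with deposited values that were not whole. Among all genes tested, 16.9% had such a value. ChREBP-beta replicate 2 listed 12389.44 for Scd1 and 34533.56 for Scd2, which sum to 46923, and GFP replicate 3 listed 14896.09 for Scd1 and 39455.91 for Scd2, which sum to 54352. In both libraries the fractions of the 2 genes thus added to a whole number, and the other 4 libraries listed whole values for both genes. Scd1 lies on chromosome 19 from 44394455 to 44407879 on the minus strand and Scd2 from 44293674 to 44306864 on the plus strand (GENCODE M21, GRCm38), within 114 kb of each other. Their coding sequences were identical at 90.9% of aligned bases outside gaps, and 145 windows of 50 bases occurred in both genes, or 2.97% of those of Scd1 and 2.65% of those of Scd2. The longest run shared exactly by their longest transcripts was 147 bases, inside both coding sequences, at bases 823 to 969 of the Scd1 transcript and 1246 to 1392 of the Scd2 transcript. It is shown because a read that falls inside it has no unique origin.
Scd1 and Scd2 shared coding run: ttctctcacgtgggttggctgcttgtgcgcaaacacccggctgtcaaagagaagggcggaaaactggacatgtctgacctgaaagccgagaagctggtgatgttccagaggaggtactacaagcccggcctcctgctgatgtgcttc
Summed over both genes, the level was 2536, 2494 and 2464 CPM in the ChREBP-beta libraries, against 2808, 2984 and 3028 CPM in the GFP libraries. This sum does not depend on how reads were divided between the pair, and it fell by 0.23 on the log2 scale when fitted as 1 feature, a choice made after seeing the data (SE 0.028, edgeR adjusted p = 1.15e-07). The ratio of Scd2 to Scd1 counts was 2.74 ± 0.0437 with ChREBP-beta and 2.66 ± 0.0648 with GFP (SD, n = 3 each). The ratios overlapped between the groups (2-sided exact permutation test, p = 0.3, adjusted p = 0.3 over 3 ratios, where 3 against 3 libraries allow no p under 0.1). Scd1 also shared 167 windows with Scd3 and 84 with Scd4, both of which were hardly read, with at most 4 counts of Scd3 and 23 of Scd4 in a library.

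Among the Fads genes the largest change was that of Fads3. Fads3 (ENSMUSG00000024664.5), which introduces a double bond into sphingoid bases and has no settled role in polyunsaturated fatty acid synthesis, was at 206, 208 and 207 CPM in the ChREBP-beta libraries, against 93.9, 98.7 and 92.2 CPM in the GFP libraries. The groups were far apart, and the coefficient of variation within a group was 0.352% with ChREBP-beta and 3.54% with GFP. At 3576 to 3906 counts per ChREBP-beta library, counting alone varies by more than 0.352%, so that value does not measure reproducibility. Fads3 rose 2.18-fold (log2 fold change 1.12, SE 0.035, edgeR adjusted p = 5.48e-19), and 10.2% of all genes tested had a larger change in either direction. Fads1 (ENSMUSG00000010663.5), the desaturase of the later step that yields arachidonate, was at 207, 202 and 203 CPM in the ChREBP-beta libraries, against 187, 187 and 188 CPM in the GFP libraries. All ChREBP-beta libraries were above all GFP libraries, and the rise was 8.79% with a 95% interval from 4.18% to 13.6% (log2 fold change 0.12, SE 0.030, edgeR adjusted p = 0.00133). Fads2 (ENSMUSG00000024665.8), which carries out the opening desaturation of linoleate and alpha-linolenate, was at 287, 307 and 300 CPM in the ChREBP-beta libraries, against 289, 293 and 299 CPM in the GFP libraries. The groups overlapped, and the difference was 1.45% with a 95% interval from -2.90% to 5.99% (edgeR adjusted p = 0.579). The ratio of Fads2 to Fads1 counts was 1.46 ± 0.0679 with ChREBP-beta and 1.57 ± 0.0249 with GFP (SD, n = 3 each). No ChREBP-beta ratio reached a GFP ratio (2-sided exact permutation test, p = 0.1, the smallest possible, adjusted p = 0.15 over 3 ratios).

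The 3 Fads genes stand side by side on chromosome 19 (GENCODE M21, GRCm38), Fads3 from 10041569 to 10060110 on the plus strand, Fads2 from 10062765 to 10101746 on the minus strand and Fads1 from 10182888 to 10196877 on the plus strand, in 155 kb. Of the 10 protein-coding genes annotated in the cluster and within 100 kb of it, 9 were tested, and 5 rose, 1 fell and 3 were not called, beside 58.7% called among all genes tested. Around the cluster of Scd1, Scd2, Scd3 and Scd4, taken in the same way, 6 of 9 protein-coding genes were tested. Of these, 2 rose, 2 fell, Scd1 and Scd2 themselves, and 2 were not called. Those that rose, Chuk and Cwf19l1, start at -186.2 and -157.8 kb from the start of Scd2, beyond Scd3 at -90.4 kb. The neighbour upstream of Fads3, Rab3il1, fell 3.22-fold (edgeR adjusted p = 1.24e-06), so the 2 genes changed in opposite directions. Beyond it Fth1, the ferritin heavy chain gene, had a log2 fold change of 0.08 (SE 0.028). On the far side of Fads1, the replication nuclease gene Fen1 rose 1.19-fold and Tmem258, which starts beside it, had a log2 fold change of 0.03 (SE 0.075, edgeR adjusted p = 0.786). These neighbours were named for their position, after their values were seen.

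**Figure D2:**
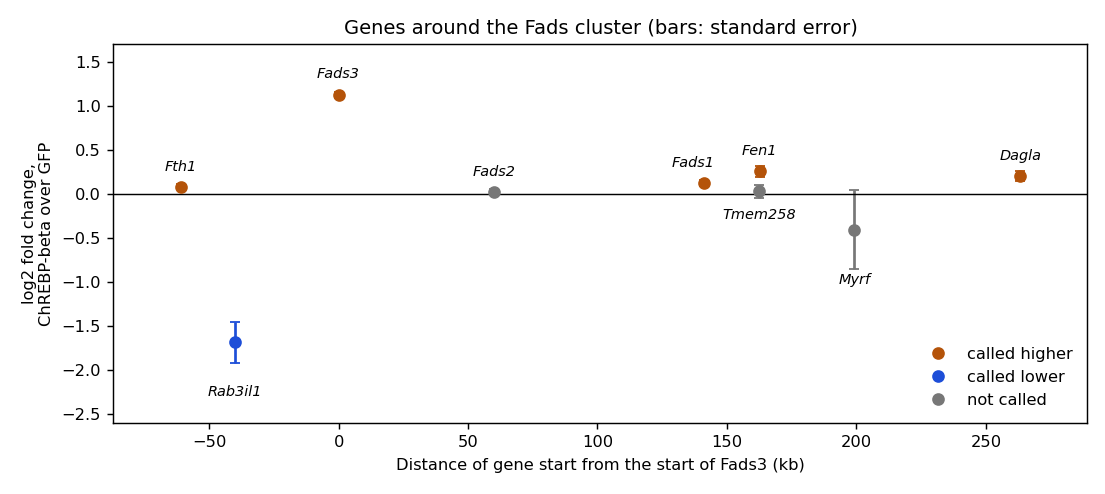
Log2 fold change (ChREBP-beta over GFP, with its standard error) of the 9 tested genes in and around the Fads cluster, by the distance of each gene's start from that of Fads3 in kb. Fads3 at 1.12 and Rab3il1 at -1.69 stand apart, and the other 7 genes lie between -0.41 and 0.25.

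Promoter sequences of 7 of the 10 genes were matched by symbol in RefSeq (GRCm38.p6, 250 bases before to 50 after a start, 8 windows), while Scd1, Scd2 and Fads1 were not matched. Fads3 and Fads2 are shown because Fads3 was called and its neighbour Fads2 was not, and Elovl5 and Elovl4 because theirs are the windows with the letters CACGTG, the E-box that ChREBP and its partner Mlx are known to bind in pairs. Capitals mark this E-box and the CCAAT box on either strand.
Fads3 promoter, chr19:10041298-10041597, plus strand: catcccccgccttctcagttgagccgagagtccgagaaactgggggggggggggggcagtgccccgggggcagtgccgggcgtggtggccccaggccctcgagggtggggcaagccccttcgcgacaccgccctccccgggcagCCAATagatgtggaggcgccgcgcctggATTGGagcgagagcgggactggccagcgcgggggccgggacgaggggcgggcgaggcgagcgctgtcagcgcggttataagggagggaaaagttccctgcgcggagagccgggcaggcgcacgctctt
Fads2 promoter, chr19:10101454-10101753, minus strand: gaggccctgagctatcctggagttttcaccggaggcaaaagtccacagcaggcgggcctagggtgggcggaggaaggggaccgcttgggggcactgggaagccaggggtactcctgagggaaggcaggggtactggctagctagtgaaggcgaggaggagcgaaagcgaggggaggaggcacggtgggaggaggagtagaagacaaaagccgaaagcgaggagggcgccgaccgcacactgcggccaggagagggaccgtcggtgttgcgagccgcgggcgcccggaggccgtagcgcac
Elovl5 promoter, chr9:77917115-77917414, plus strand: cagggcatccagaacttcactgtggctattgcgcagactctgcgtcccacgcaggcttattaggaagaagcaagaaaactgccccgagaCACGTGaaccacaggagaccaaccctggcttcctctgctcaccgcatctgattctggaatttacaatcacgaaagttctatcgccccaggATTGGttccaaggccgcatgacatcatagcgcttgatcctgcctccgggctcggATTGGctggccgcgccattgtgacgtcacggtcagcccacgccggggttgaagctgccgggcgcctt
Elovl4 promoter, chr9:83806256-83806555, minus strand: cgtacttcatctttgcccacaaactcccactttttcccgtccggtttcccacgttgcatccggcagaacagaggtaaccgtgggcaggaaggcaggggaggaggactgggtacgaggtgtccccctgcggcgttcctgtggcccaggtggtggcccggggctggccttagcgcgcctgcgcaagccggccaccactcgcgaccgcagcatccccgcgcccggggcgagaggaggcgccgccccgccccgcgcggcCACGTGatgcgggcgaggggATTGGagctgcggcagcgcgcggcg
The E-box letters begin 161 bases before the RefSeq start of Elovl5, which rose, and at base 6 counted from the RefSeq start of Elovl4, which fell. That RefSeq start of Elovl4 lies upstream of the GENCODE M21 gene, and so do these letters. They were found in 7.15% of all 32851 promoter windows of this length, on either strand. CCAAT occurred in the windows of 4 of the 7 genes, Fads3, Elovl1, Elovl4 and Elovl5, and in 37.4% of all windows. The window of Fads2, which held neither CCAAT nor the E-box, lies mostly inside the GENCODE M21 gene. The upstream end of that gene is at 10101746, so this window is not mainly upstream sequence in that annotation. None of the 8 windows held, on either strand, the paired E-box (CACGTG given again after 5 bases of any kind), TCACNCCAC, a pattern like the sterol response element, or the LXR repeat (AGGTCA given again after 4 bases of any kind). The share of all windows with them was 0%, 1.24% and 0.0152% in that order. With shares this low, their absence does not set these 8 windows apart. Each end of the paired E-box is itself the E-box. A match in these letters is a description of the window and not a site.

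Elovl5 had the largest rise among the elongases. Elovl5 (ENSMUSG00000032349.13; chromosome 9, 77917364 to 77984519, plus strand), which elongates polyunsaturated chains between the Fads2 and Fads1 steps, was at 196, 187 and 194 CPM in the ChREBP-beta libraries, against 142, 143 and 141 CPM in the GFP libraries. The groups did not overlap, and Elovl5 rose 1.36-fold (log2 fold change 0.44, SE 0.032, edgeR adjusted p = 1.90e-11). Elovl6 (ENSMUSG00000041220.10; chromosome 3, 129532355 to 129638495, plus strand), which turns palmitate into stearate, the substrate of the Scd enzymes, was at 223, 227 and 226 CPM in the ChREBP-beta libraries, against 214, 212 and 230 CPM in the GFP libraries. GFP replicate 3 was the highest of all 6 libraries, so the groups overlapped. The difference was 3.26% with a 95% interval from -1.49% to 8.24% (edgeR adjusted p = 0.234), and without GFP replicate 3 the log2 fold change of 0.09 was called (SE 0.033, edgeR adjusted p = 0.0253). The ratio of Elovl6 to Elovl5 counts was 1.17 ± 0.0382 with ChREBP-beta and 1.54 ± 0.0785 with GFP (SD, n = 3 each). Every ChREBP-beta ratio was below every GFP ratio (2-sided exact permutation test, p = 0.1, the smallest possible, adjusted p = 0.15 over 3 ratios).

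The elongases of saturated very long chains moved in both directions. Elovl1 (ENSMUSG00000006390.15; chromosome 4, 118428093 to 118432953, plus strand), which supplies very long chains for sphingolipids, was at 140, 148 and 141 CPM in the ChREBP-beta libraries, against 126, 126 and 124 CPM in the GFP libraries. The groups did not overlap, and Elovl1 rose 13.8% with a 95% interval from 8.26% to 19.6% (log2 fold change 0.19, SE 0.035, edgeR adjusted p = 6.28e-05). Its exons share 53 bases with the opposite-strand gene Cdc20, whose reads cannot be told apart there, since the use of strand is not given. Elovl4 (ENSMUSG00000032262.13; chromosome 9, 83778692 to 83806277, minus strand), the elongase of ultra-long chains known from retina, skin and brain, was at 4.52, 4.47 and 4.34 CPM in the ChREBP-beta libraries, against 9.16, 8.74 and 5.24 CPM in the GFP libraries. The groups did not overlap, but GFP replicate 3, with 94 counts, lay closer to the ChREBP-beta libraries, with 75 to 84 counts, than to GFP replicates 1 and 2, with 175 and 158. Elovl4 fell 1.74-fold (log2 fold change -0.80, SE 0.18, edgeR adjusted p = 5.59e-04). The log2 fold change was -1.005 without GFP replicate 3 and -0.655 without GFP replicate 1 (edgeR adjusted p = 4.15e-06 and 0.0074). Elovl7 (ENSMUSG00000021696.9; chromosome 13, 108214404 to 108285683, plus strand), another elongase of saturated chains, was read at 22 to 27 counts with ChREBP-beta and 24 to 33 counts with GFP. The groups overlapped, and its 95% interval, from -46.9% to 32.2%, was wide at this depth (edgeR adjusted p = 0.509).

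**Figure D3:**
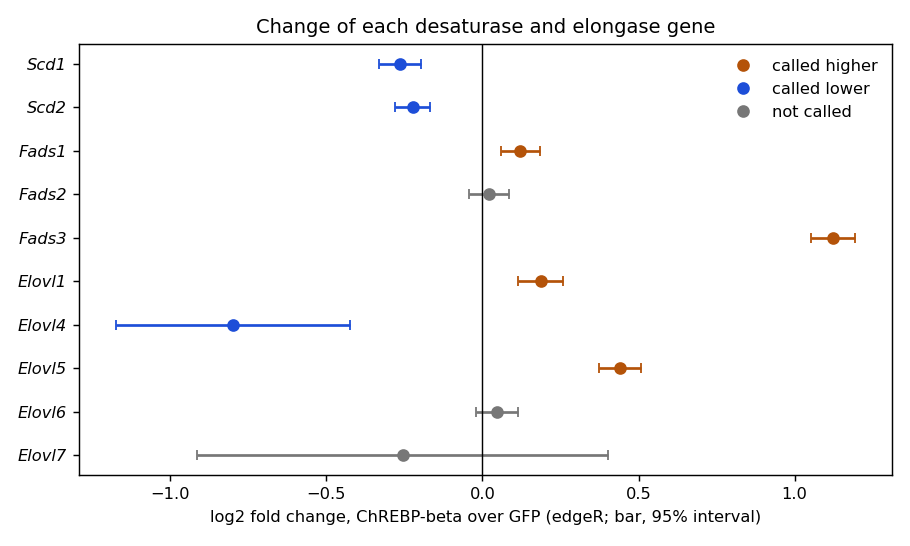
Log2 fold change of each of the 10 genes, ChREBP-beta over GFP, from edgeR, with its 95% interval and coloured by whether it was called. Fads3 stands at 1.12 and Elovl5 at 0.44 on the higher side, Elovl4 at -0.80 on the lower side, and the intervals of Fads2, Elovl6 and Elovl7 include 0.

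Divided by the length of each gene's exons, the levels spanned a wide range. In CPM per kb of exon, the order with ChREBP-beta was Scd2 at 335 ± 5.15, Scd1 at 137 ± 2.47, Fads2 at 90.5 ± 3.01, Elovl5 at 54.6 ± 1.30, Fads3 at 54.5 ± 0.192, Elovl1 at 52.4 ± 1.58, Fads1 at 42.4 ± 0.576, Elovl6 at 35.1 ± 0.338, Elovl4 at 1.47 ± 0.0305 and Elovl7 at 0.333 ± 0.0215 (SD, n = 3). Elovl5 and Fads3 were the only neighbours in that order whose libraries overlapped. With GFP, Scd2 was at 391 ± 13.3, Scd1 at 164 ± 9.04 and Fads2 at 89.2 ± 1.58 CPM per kb. Fads3 ranked 8 with GFP, at 25.0 ± 0.887 CPM per kb, below Elovl6 at 34.0 ± 1.5, and ranked 5 with ChREBP-beta. No neighbours in the GFP order overlapped. The exon lengths are those of GENCODE M21 and assume that all annotated exons are used.

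**Figure D4:**
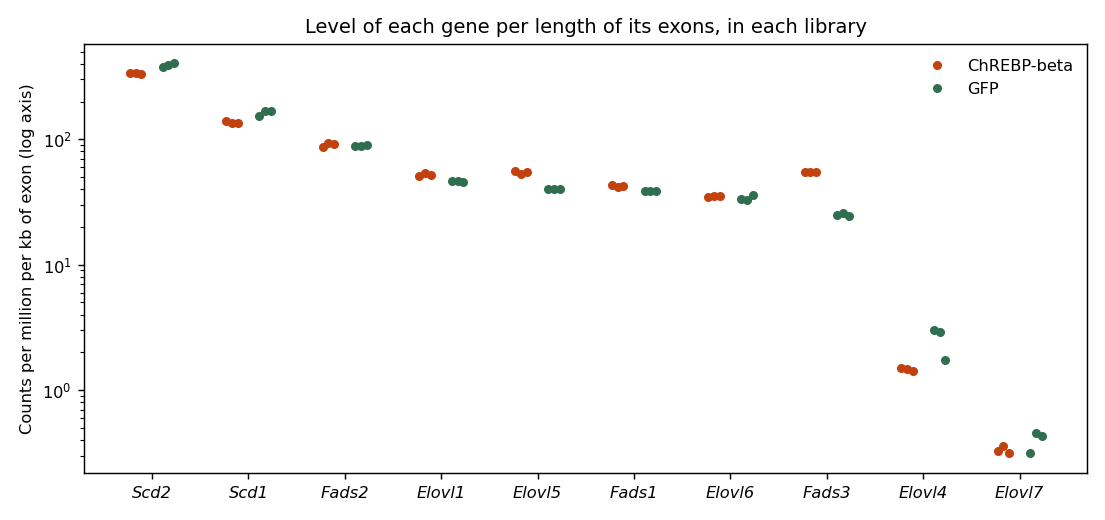
Level of each gene per kb of its annotated exons in every library, on a log axis, with ChREBP-beta libraries to the left of GFP libraries and genes ordered by their GFP mean. Scd2 and Scd1 stand highest, Elovl4 and Elovl7 lie far below the rest, and Fads3 averages 54.5 CPM per kb with ChREBP-beta and 25.0 CPM per kb with GFP.

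The summed level of each family follows, and a part of the members made up most of the difference in the Fads and Elovl sums. Scd1 and Scd2 together were at 2498 ± 36.3 CPM with ChREBP-beta and 2940 ± 116 CPM with GFP. The 3 Fads genes together were at 709 ± 7.94 CPM with ChREBP-beta and 576 ± 5.26 CPM with GFP, and the 5 Elovl genes at 567 ± 1.75 CPM with ChREBP-beta and 495 ± 5.42 CPM with GFP (SD, n = 3 each). Within the Fads sum, Fads3 alone was at 207 CPM with ChREBP-beta and 94.9 CPM with GFP, while Fads2 was not called. Within the Elovl sum, Elovl5 alone was at 192 CPM with ChREBP-beta and 142 CPM with GFP, while Elovl4 fell. All 10 genes took between 0.366% and 0.376% of the counts of a ChREBP-beta library and between 0.393% and 0.419% of those of a GFP library.

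Other desaturase and elongase genes were mostly at the limit of detection in these cells. Degs1, which desaturates dihydroceramide to ceramide, was the abundant exception, at 208, 210 and 203 CPM in the ChREBP-beta libraries, against 178, 175 and 170 CPM in the GFP libraries. The groups did not overlap, and Degs1 rose 1.19-fold (edgeR adjusted p = 2.97e-07). Fads6, a further family member, had 1, 2 and 1 counts in the ChREBP-beta libraries, against 6, 10 and 19 counts in the GFP libraries. It did not pass the filter on low counts, and with no filter it was called lower (edgeR adjusted p = 0.00182). Scd4, at 13 to 23 counts with ChREBP-beta and 10 to 20 with GFP, was not called. Summed over the 3 libraries of a group, Scd3 had 2 counts with ChREBP-beta and 6 with GFP, Degs2 had 1 with ChREBP-beta and 7 with GFP, Elovl2 had 3 with ChREBP-beta and 1 with GFP, and Elovl3 had 0 with ChREBP-beta and 1 with GFP.

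The enzymes that complete each elongation cycle are shared by all the elongases. Of 6 tested genes in this list, 1 rose, 1 fell and 4 were not called (median log2 fold change -0.06, against -0.004 over all genes), so that 33.3% were called, beside 58.7% of all genes tested. The number that fell depended on the scaling, being 3 by library size only, where Hacd4 and Tecr were also called lower (edgeR adjusted p = 0.0204 and 0.0367), and 2 by the upper quartile, with Hacd4 (edgeR adjusted p = 0.0384). Without GFP replicate 3 it was also 2, with Tecr (edgeR adjusted p = 0.0462). Hacd4 and Tecr are named after their values were seen. Hacd1, a muscle-enriched dehydratase of the cycle, rose 1.29-fold (edgeR adjusted p = 3.14e-05), and Hacd3, another dehydratase, fell by 0.18 on the log2 scale (edgeR adjusted p = 0.00543). Of 6 tested cytochrome b5 and reductase genes, which include the electron supply to the desaturases, 3 rose, 1 fell and 2 were not called. The median log2 fold change was 0.12, and the called share was 66.7% beside 58.7% of all genes. Cyb5a, the microsomal cytochrome b5 gene, was at 41.6 ± 1.91 CPM with ChREBP-beta and 55.8 ± 1.06 CPM with GFP (SD, n = 3 each), a fall of 0.42 on the log2 scale (edgeR adjusted p = 3.09e-07). Cyb5b, the outer mitochondrial form, rose by 0.22 on the log2 scale, and the reductase genes Cyb5r3 and Cyb5r1 by 0.10 and 0.21 (edgeR adjusted p = 2.69e-06, 0.00146 and 0.00342). Scaled by library size only, Cyb5r3 was not called (edgeR adjusted p = 0.0597).

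Upstream of the 10 genes, the genes that supply acetyl-CoA, malonyl-CoA and palmitate moved in both directions. Of 8 tested genes 5 rose, 2 fell and 1 was not called (median log2 fold change 0.17), a called share of 87.5% beside 58.7% of all genes. One of those that fell, Acacb, the other acetyl-CoA carboxylase gene, named after its values were seen, was not called when any library but GFP replicate 1 was left out (edgeR adjusted p = 0.0523 to 0.111), which leaves 1 that fell. Acly, ATP citrate lyase, was at 1631, 1617 and 1623 CPM in the ChREBP-beta libraries, against 371, 366 and 371 CPM in the GFP libraries, and Acaca, which makes malonyl-CoA, was at 903, 864 and 872 CPM in the ChREBP-beta libraries, against 225, 228 and 234 CPM in the GFP libraries. In both genes the groups were far apart. The log2 fold changes of Acly and Acaca were 2.14 (SE 0.026) and 1.94 (SE 0.029), larger than that of Fads3, the strongest riser of the 10 (edgeR adjusted p = 1.07e-26 and 3.09e-25). Fasn, the synthase that releases palmitate, had a log2 fold change of 0.43 (SE 0.032), close to that of Elovl5, and Acss2, which activates acetate, one of -0.44 (SE 0.059). Downstream, genes of acyl-CoA activation and use had 3 members higher, 9 lower and 6 not called of 18 tested (median -0.18), or 66.7% called. Among all genes tested 58.7% were called, 29.5% higher and 29.3% lower. Of the 9 lower, Acbd3 was not called when any 1 library was left out (edgeR adjusted p = 0.0525 to 0.201). With all libraries, Acbd3 was also not called by DESeq2 (adjusted p = 0.12) or under RLE, another scaling (edgeR adjusted p = 0.0556). The same held with no filter and with the replicate number as a block (edgeR adjusted p = 0.0813 and 0.0621). Dgat1 was not called without ChREBP-beta replicate 1 or 2 or GFP replicate 3 (edgeR adjusted p = 0.0788, 0.061 and 0.0845). Scaled by library size only, Acsl4, Dbi and Lpcat4 were also called lower (edgeR adjusted p = 0.00922, 0.0328 and 0.038). These genes are named after their values were seen. Acsl3 and Acsl1, which activate fatty acids, fell 1.40-fold and 1.34-fold (edgeR adjusted p = 2.47e-12 and 2.81e-06). Lpcat3, which places polyunsaturated chains into phospholipids, fell 1.43-fold, whereas Agpat3, an acyltransferase of phosphatidic acid synthesis, rose 1.31-fold (edgeR adjusted p = 4.06e-11 and 3.53e-09).

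Known regulators of the family split, with 5 higher, 5 lower and 6 not called of 16 tested. The median log2 fold change was -0.002, and the called share was 62.5% beside 58.7% of all genes. Mlxipl, the overexpressed gene, is among the 5 higher and counts in the median and the share, although its rise was set by the design. The number lower was 3 by DESeq2, where Srebf1 and Insig2 were not called (adjusted p = 0.101 and 0.103). It was 2 without ChREBP-beta replicate 2, where Mlx was not called either (edgeR adjusted p = 0.0535), and 3 without ChREBP-beta replicate 3 or any 1 GFP library. Insig2 was also not called with the replicate number as a block (edgeR adjusted p = 0.0556), and Insig2 and Mlx are named after their values were seen. Beside Mlxipl, Insig1, which retains SREBP precursors in the endoplasmic reticulum, was at 212 ± 2.83 CPM with ChREBP-beta and 134 ± 0.658 CPM with GFP (SD, n = 3 each), a 1.58-fold rise (edgeR adjusted p = 4.04e-15). Ppard, a fatty acid receptor, rose 1.66-fold, and Mlxip, the gene of MondoA, a close relative of ChREBP, fell 1.30-fold (edgeR adjusted p = 6.82e-11 and 2.31e-05). The SREBP genes themselves, named after their values were seen, had small differences. Srebf1 had 87.2 ± 1.03 CPM with ChREBP-beta and 93.3 ± 1.05 CPM with GFP, and Srebf2 had 431 ± 1.99 CPM with ChREBP-beta and 420 ± 9.84 CPM with GFP (SD, n = 3 each). The log2 fold change of Srebf1, -0.10, was called (edgeR adjusted p = 0.0326) but not by DESeq2 (adjusted p = 0.101) or with no filter (edgeR adjusted p = 0.0652). Srebf1 was also not called without ChREBP-beta replicate 2 or 3 or any 1 GFP library (edgeR adjusted p = 0.0532 to 0.111). The log2 fold change of Srebf2, 0.04, was not called (edgeR adjusted p = 0.257). Scaled by library size only, the log2 fold change of Srebf2 was -0.009.

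**Figure D5:**
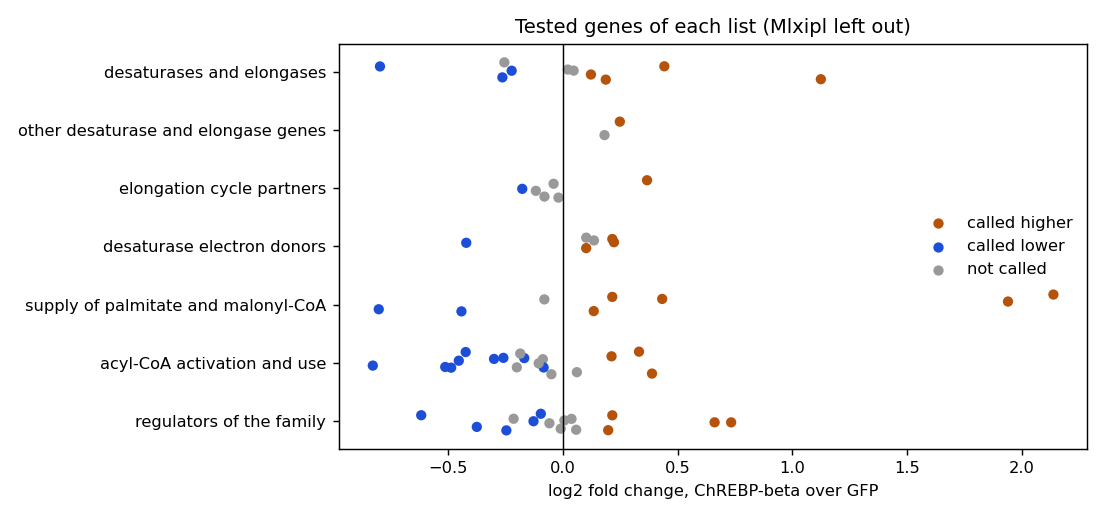
Log2 fold change (ChREBP-beta over GFP) of each tested gene of the 10 desaturases and elongases, on the top row, and of 6 related lists below, with Mlxipl left out. Points are genes, coloured by call, with random height within a row. Acly at 2.14 and Acaca at 1.94 lie beyond Fads3 at 1.12, and both rows of acyl-CoA use and of regulators hold calls on either side of 0.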

How the data were processed

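The 6 libraries were grouped by their titles. The authors deposited a table of estimated counts per gene symbol, not normalized, of which 7.74% are not whole. Per the submitters' processing notes, fastp, Bowtie2 2.0.0.5 and TopHat2 2.0.0 were used with the build GRCg6a, a chicken assembly, although the table lists mouse gene symbols. A mouse build, an annotation, the counting tool and its strand setting were not given in the sources used here.

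Rows with the same symbol were summed and rounded. Genes kept by filterByExpr (minimum count 10) were tested with edgeR 4.0.16 (R 4.3.3): TMM scaling, glmQLFit and glmQLFTest without covariates, 2-sided, Benjamini-Hochberg adjustment over 12166 genes. Standard errors are the size of the log2 fold change over the square root of F. Ratios of 2 genes were compared by exact permutation. The procedure was tested on simulated data. Locations and exon lengths are from GENCODE M21 (GRCm38), promoters from RefSeq, which may not be the authors' build. 1 count is worth 0.0548 CPM on average. Within groups, chi-square per degree of freedom was 2.14 to 3.95, so no library was counted as a repeat sequencing of another. These values cannot show whether replicates were separate cultures.

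The 10 genes, the lists and the naming rule (all 10 genes, other family members with a count, up to 4 called genes of each list by adjusted p, and the 2 most abundant markers) were chosen with earlier results of these data known. Alternatives were other scalings, filters, DESeq2 1.42.0, limma-voom (limma 3.58.1), rounding down, the replicate block, a 1.2-fold minimum and each library left out.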

Additional observations from a re-analysis of the deposited data

How the results depend on the processing

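Fads3, Elovl5 and Elovl4 were called in the same direction under all 17 alternatives, with log2 fold changes of 1.08 to 1.16, 0.40 to 0.46 and -1.005 to -0.655. Scd1, Scd2, Fads1 and Elovl1 were called in 16 of 17, the exception being the test against a 1.2-fold minimum, under which the counts fell by construction. That test called 2 of the 10 genes higher and 1 lower, 1510 and 1886 of all genes, and 7 and 9 genes of the related lists, against 4 and 3, 3584 and 3561, and 18 and 18. Elovl6 was called only without GFP replicate 3. Genes that were not called could change sign, and none was called after it did. Under library size scaling the log2 fold change was -0.026 for Fads2, -0.000216 for Elovl6, -0.0095 for Srebf2 and -0.040 for Rxra, and the median of all genes was -0.05. Under upper-quartile scaling it was -0.012 for Fads2 and -0.027 for Rxra, and with the CPM filter -0.0091 for Rxra. Leaving out 1 library at a time, it lay between -0.053 and 0.348 for Scd4, -0.044 and 0.013 for Hsd17b12, -0.079 and 0.011 for Tecr, -0.054 and 0.343 for Cyb5rl, -0.334 and 0.387 for Mboat2, -0.031 and 0.025 for Mbtps1, -0.012 and 0.115 for Nr1h2, -0.266 and 0.266 for Nr1h3, and -0.034 and 0.034 for Rxra. Elovl7 had no value under the filter at a mean CPM of 5. Replicate numbers were shared between groups, but same-numbered libraries did not deviate together (correlations -0.0129, 0.00389 and -0.0409). The ratios kept their sign without any 1 library, the log2 difference lying between 0.0244 and 0.0587 for Scd2 to Scd1, -0.130 and -0.0642 for Fads2 to Fads1, and -0.422 and -0.353 for Elovl6 to Elovl5. With the replicate block 4 of the 10 genes were higher and 3 lower, and 56.7% of all genes were called. At 22 to 33 counts per library, depth limits what can be said of Elovl7.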
